A study of Mus musculus with 7 samples.

Results

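The genes described here code for nuclear-encoded subunits of complexes II, III, IV and V of the mitochondrial respiratory chain, together with cytochrome c. They were chosen by gene symbol: Sdha to Sdhd, Cycs, Cyc1, and every symbol that starts with Uqcr, Cox4, Cox5, Cox6, Cox7, Cox8 or Atp5, without pseudogenes. The rule itself used no measured value, but earlier results of these data were known when it was set. Directions are therefore no independent support. The rule took 48 of 18193 measured genes: 4 of complex II, 9 of complex III, cytochrome c (Cycs), 17 of complex IV and 17 of complex V. Of these, 46 lay above the background level by their mean over all arrays. Cox6b2 and Cox7b2 did not.

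RNA came from the plantaris, a fast hindlimb muscle, of mice aged 4 months. Every mouse in all groups, controls included, carried the alleles Pax7-CreER and Rosa26-DTA (Pax7-DTA), with which tamoxifen turns on diphtheria toxin A where Pax7 is active, a factor that marks the stem cells of muscle (satellite cells). Tamoxifen groups are labelled as lacking satellite cells and vehicle groups as having them. Surgery was either a sham operation or synergist ablation, in which neighbouring muscles of like action are removed so that the plantaris carries more load, here for 1 week. There was 1 array of vehicle sham (male), 1 of tamoxifen sham (male), 2 of vehicle overload (replicate 1 female, replicate 2 male) and 3 of tamoxifen overload (replicates 1 and 2 male, replicate 3 female). The toxin acts only where the Pax7 driver is active, so muscle fibres, which hold most of the mitochondria, are not its direct target. Titles of the samples name single mice, but the description of the design has pooled muscles from 11 animals, so the number of animals per array is not settled. P-values therefore measure the spread between these arrays, which may be partly technical.

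In the respiratory chain, complex II (succinate dehydrogenase) passes electrons from succinate to ubiquinone. Complex III passes them on to cytochrome c, and complex IV (cytochrome c oxidase) passes them to oxygen. Complex V (ATP synthase) uses the proton gradient to make ATP. Some complex IV subunits exist as a pair of isoforms from different genes, one found mainly in heart and skeletal muscle (Cox6a2, Cox7a1, Cox8b) and one found in most tissues (Cox6a1, Cox7a2, Cox8a). Oxidative muscle is rich in all of these complexes.

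Values are log2 levels, log2(signal + 1), of the probe set with the highest mean for each gene. Array medians of the signal ranged from 88.21 to 127.73, and 12470 genes (68.5%) lay above the background level of log2 5.80. It was set from 75 receptor genes of smell and taste. Tamoxifen overload replicate 2 had the highest median signal and the highest 3'/5' signal ratios of Gapdh (0.906, lowest 0.807) and actin (1.20). Among the 5 overload arrays it had the lowest level for 40 of the 46 members above background. Results without it are given where they differ.

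Overload was compared with sham over both treatments (5 against 2 arrays) to see what a week of added load did to the transcripts of the respiratory chain. Of the 48 genes, 23 were lower after overload, 2 were higher (Cox6a1 and Cox8a) and 23 were not called, at an adjusted p under 0.05 in limma. Of all genes tested, 8.16% were called lower and 14.7% higher (22.9% either way). The median difference of the 48 genes was -0.51 on the log2 scale, against 0.07 for all genes. At an unadjusted p under 0.05 there were 36, against 34.6% of all genes. The difference lay below 0 for 43 of the 48, against 46.3% of all genes. Complex II had all 4 genes called lower (median difference -0.66), complex III 7 of 9 (median -0.62), complex V 7 of 17 (median -0.49) and complex IV 4 of 17, with the 2 higher calls (median -0.40).

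**Figure D1:**
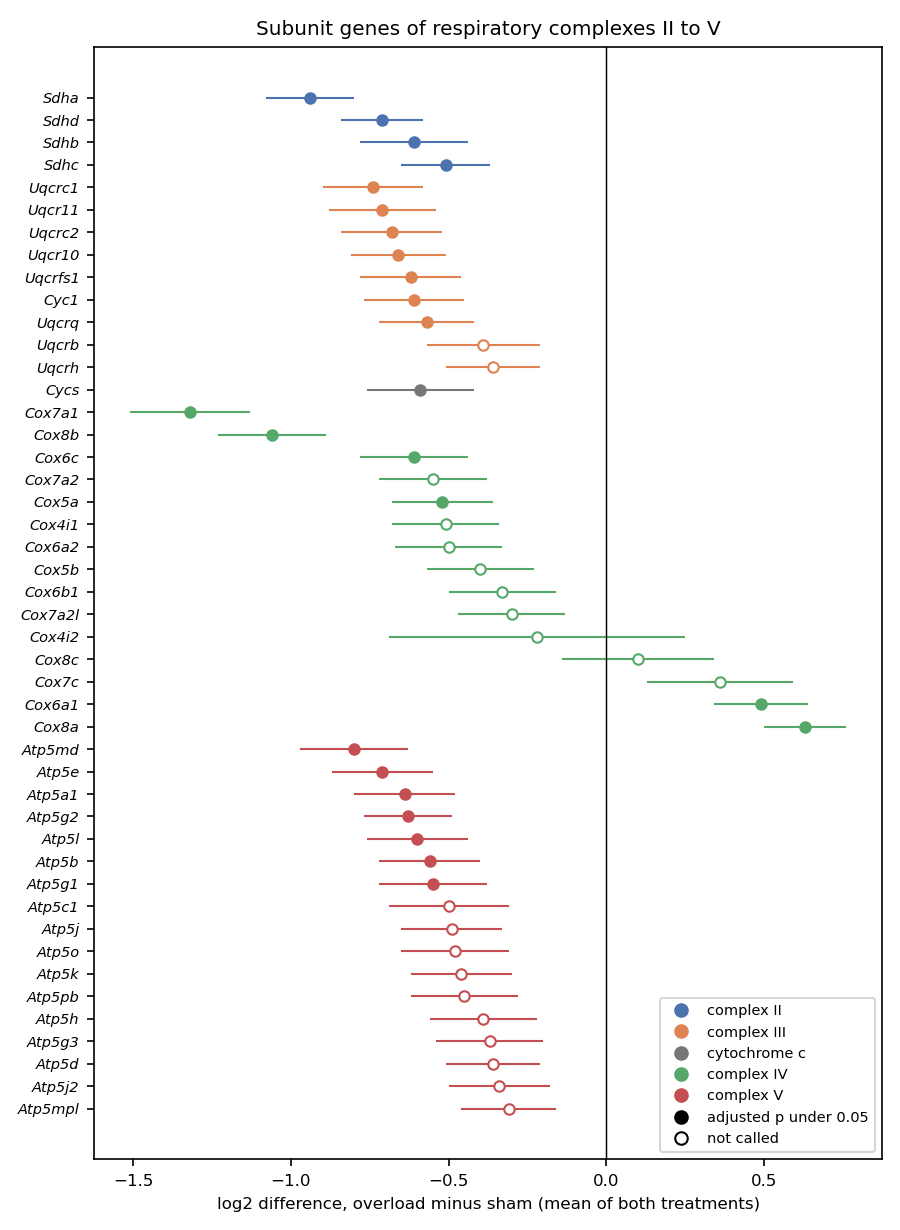
Difference in log2 level between overload and sham (mean of both treatments) for the 46 genes above background, grouped by complex, with bars of 1 moderated standard error of limma on each side; filled points were called at an adjusted p under 0.05. Most points lie between 0 and -1, Cox7a1 (-1.32) and Cox8b (-1.06) lie lowest, and Cox6a1 and Cox8a are the filled points above 0.

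The arrays themselves separated for most of the genes. For 40 of the 48, all 5 overload arrays lay below both sham arrays, against 18.3% of all genes. These were 4 of 4 in complex II, 9 of 9 in complex III, Cycs, 17 of 17 in complex V and 9 of 17 in complex IV. All 5 overload arrays lay above both sham arrays for Cox6a1, Cox7c and Cox8a, against 23.1% of all genes. With 2 sham arrays the calls depended on single arrays: 1 of the 25 called genes (Cox7a1) kept its call whichever of the 7 arrays was left out, and no called gene changed sign. Without vehicle overload replicate 2, Cox7a1 was the only call. In that fit 10.6% of all genes were called. The count was 6 without vehicle sham (11.6% of all genes), 9 without tamoxifen sham (16.6%), 7 without vehicle overload replicate 1 (19.8%), and 6 when tamoxifen overload replicate 3 was left out (20%). In these fits the members' share of calls in either direction was near or below that of all genes, whose calls were mostly higher. For lower calls alone, the members' share was above that of all genes, except without vehicle overload replicate 2. The count was 32 without tamoxifen overload replicate 1 (25.8% of all genes) and 33 without tamoxifen overload replicate 2 (19.9%). The differences of the 25 called genes moved by at most 0.15 in these fits, apart from that of Cox8a. Among genes not called, Cox4i2 and Cox8c changed sign in some of them.

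The size of the decrease depended on how arrays were put on one scale. Each array was deposited with the same trimmed mean, and overload arrays had higher medians. After centring each array on its median, all genes had a median difference of -0.22 and the 48 genes one of -0.80, with 20 called lower (14.9% of all genes) and 0 higher. After quantile normalization these medians were -0.06 and -0.26, with 9 called lower (7.18% of all genes) and 2 higher. Relative to all genes, the 48 genes lay at -0.58 as deposited and -0.20 after quantile normalization, and 43 of the 48 lay below the median of all genes in both. Centring shifts every gene of an array alike, so it cannot change this relative position (-0.58, 43 of 48). The sign of the median of the 48 genes was the same under the 3 scalings, and its size was not.

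**Figure D2:**
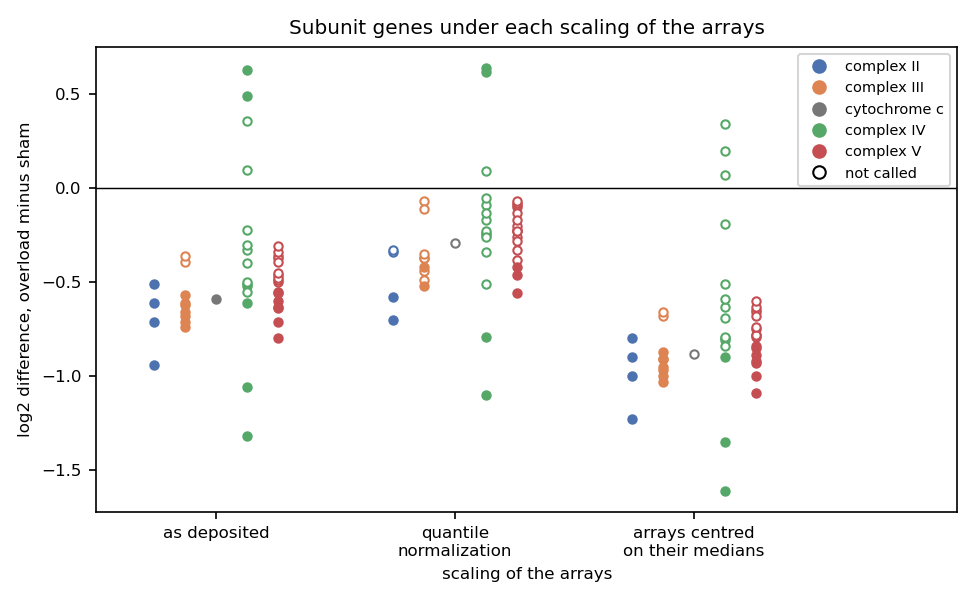
Difference in log2 level between overload and sham for the 46 genes above background, coloured by complex, under 3 scalings of the arrays (as deposited, quantile normalized, each array centred on its median); filled points were called at an adjusted p under 0.05. The genes lie nearer 0 after quantile normalization and lower after centring, where no filled point is left above 0, and Cox7a1 and Cox8b are lowest in each.

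Complex II is both a respiratory complex and an enzyme of the tricarboxylic acid cycle, and all 4 of its subunits fell. Sdha, the flavoprotein that oxidises succinate, had log2 levels of 14.24 in vehicle sham, 14.11 in tamoxifen sham, 13.58 and 13.35 in vehicle overload, and 13.17, 13.07 and 13.32 in tamoxifen overload (replicates in order). Every overload array lay below both sham arrays, and the difference was -0.94 ± 0.14 (SE; adjusted p = 0.00324, limma), 1.91-fold lower. Sdhd, a membrane anchor, had 13.01 and 13.05 in the vehicle and tamoxifen sham arrays, 12.48 and 12.45 in vehicle overload, and 12.26, 12.13 and 12.30 in tamoxifen overload. Its difference was -0.71 ± 0.13 (adjusted p = 0.00789). The groups did not overlap, and the calls of both genes were lost in the fit without vehicle overload replicate 2 alone among the single arrays left out.

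Sdhb, the iron-sulfur subunit, had log2 levels of 14.69 and 14.60 in sham, 14.19 and 14.14 in vehicle overload, and 14.09, 13.78 and 14.04 in tamoxifen overload, a difference of -0.61 ± 0.17 (adjusted p = 0.0356). Sdhc, the other membrane anchor, had 13.50 and 13.59 in sham, 13.32 and 13.15 in vehicle overload, and 12.98, 12.82 and 12.94 in tamoxifen overload, a difference of -0.51 ± 0.14 (adjusted p = 0.0378). For both, overload arrays again lay below the sham arrays. For Sdhc vehicle overload replicate 1 came within 0.2 of them.

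Complex III fell in 7 of its 9 genes, among them both core proteins, cytochrome c1 and the Rieske iron-sulfur protein. Uqcrc1, a core protein, had log2 levels of 14.17 and 14.07 in sham, 13.58 and 13.50 in vehicle overload, and 13.42, 13.09 and 13.31 in tamoxifen overload, a difference of -0.74 ± 0.16 (adjusted p = 0.0137). Uqcrc2, the other core protein, had 14.46 and 14.43 in sham, 13.97 and 13.94 in vehicle overload, and 13.73, 13.47 and 13.70 in tamoxifen overload, a difference of -0.68 ± 0.16 (adjusted p = 0.0191). In both core proteins tamoxifen overload replicate 2 was the lowest array. Uqcr11, a small supernumerary subunit, had 13.95 and 13.97 in sham, 13.67 and 13.49 in vehicle overload, and 13.23, 12.82 and 13.24 in tamoxifen overload, a difference of -0.71 ± 0.17 (adjusted p = 0.0202). Uqcr10, another small subunit, had 13.90 and 13.84 in sham, 13.38 and 13.33 in vehicle overload, and 13.23, 12.95 and 13.19 in tamoxifen overload, a difference of -0.66 ± 0.15 (adjusted p = 0.0185). In all 4 genes the 3 tamoxifen overload arrays lay below the 2 vehicle overload arrays.

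The nuclear-encoded electron-carrying subunits of complex III are cytochrome c1 (Cyc1) and the Rieske iron-sulfur protein (Uqcrfs1). They fell by 0.61 ± 0.16 (adjusted p = 0.0286) and 0.62 ± 0.16 (adjusted p = 0.0293). Uqcrq fell by 0.57 ± 0.15 (adjusted p = 0.0285). Uqcrb (-0.39 ± 0.18, adjusted p = 0.172) and Uqcrh (-0.36 ± 0.15, adjusted p = 0.138) were not called, although their overload arrays lay below both sham arrays. Cycs, the mobile carrier between complexes III and IV, had log2 levels of 15.29 and 15.21 in sham, 14.64 and 14.73 in vehicle overload, and 14.70, 14.45 and 14.33 in tamoxifen overload. It fell by 0.59 ± 0.17 (adjusted p = 0.046), close to the threshold, and here tamoxifen overload replicate 3 was the lowest array.

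Complex V was even across its genes: all 17 had every overload array below both sham arrays, with differences from -0.80 to -0.31, and 7 were called. Atp5md, a small membrane subunit of the ATP synthase dimer, had log2 levels of 14.19 and 14.25 in sham, 13.63 and 13.40 in vehicle overload, and 13.60, 13.24 and 13.51 in tamoxifen overload. Its difference was -0.80 ± 0.17 (adjusted p = 0.0117), 1.74-fold lower, and its call was lost without vehicle overload replicate 2. Atp5e, the epsilon subunit of the catalytic head, had 14.24 and 14.15 in sham, 13.73 and 13.60 in vehicle overload, and 13.52, 13.18 and 13.42 in tamoxifen overload (-0.71 ± 0.16, adjusted p = 0.0177). No overload array of either reached the level of a sham array.

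Atp5a1 (alpha subunit) had log2 levels of 14.88 and 14.79 in sham, 14.34 and 14.35 in vehicle overload, and 14.17, 13.95 and 14.14 in tamoxifen overload, a difference of -0.64 ± 0.16 (adjusted p = 0.0269). Atp5b (beta subunit, which carries the catalytic sites) fell by 0.56 ± 0.16 (adjusted p = 0.0442), and Atp5l, a membrane subunit, by 0.60 ± 0.16 (adjusted p = 0.0282). The c ring of the rotor is built from one protein encoded by 3 genes. Atp5g2 had 13.75 and 13.78 in sham, 13.22 and 13.19 in vehicle overload, and 13.14, 12.99 and 12.95 in tamoxifen overload (-0.63 ± 0.14, adjusted p = 0.017). Atp5g1 had 14.36 and 14.23 in sham, 14.03 and 13.87 in vehicle overload, and 13.79, 13.45 and 13.77 in tamoxifen overload (-0.55 ± 0.17, adjusted p = 0.049). Atp5g3 had 14.87 and 14.71 in sham, 14.50 and 14.57 in vehicle overload, and 14.41, 14.18 and 14.36 in tamoxifen overload, and was not called (-0.37 ± 0.17, adjusted p = 0.168). The other genes of complex V (Atp5c1, Atp5d, Atp5h, Atp5j, Atp5j2, Atp5k, Atp5mpl, Atp5o and Atp5pb) were not called, with differences from -0.50 to -0.31.

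**Figure D3:**
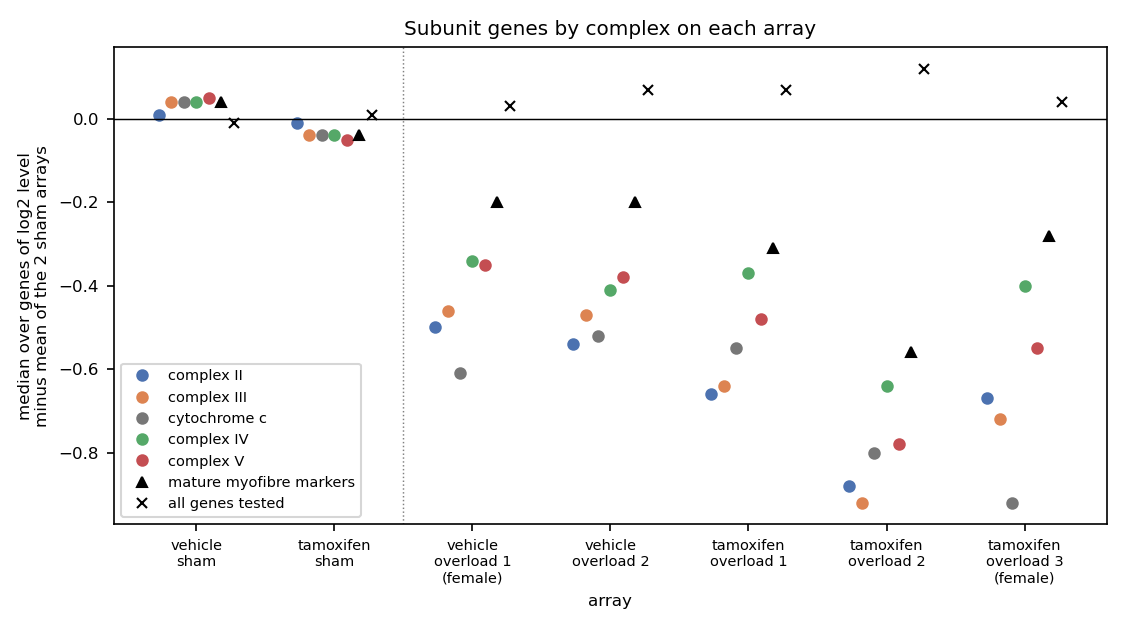
Median over the genes of each complex (coloured circles), over 10 myofibre genes (triangles) and over all genes (crosses) of the log2 level minus the mean of the sham arrays, for each of the 7 arrays. The sham arrays lie within 0.05 of 0, the vehicle overload arrays between -0.34 and -0.54 for complexes II to V and the tamoxifen overload arrays between -0.37 and -0.92, with the myofibre genes nearer 0 and all genes just above it in overload.

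Complex IV was the most varied. The genes with the largest fall among the called ones in all the complexes were 2 of its muscle isoforms, and the 2 genes that rose were isoforms found in most tissues. Cox7a1, a small subunit of the complex and its dimer in heart and skeletal muscle, had log2 levels of 14.01 in vehicle sham and 13.89 in tamoxifen sham, 13.19 and 12.75 in vehicle overload, and 12.75, 12.20 and 12.71 in tamoxifen overload. All overload arrays lay far below sham, the difference was -1.32 ± 0.19 (adjusted p = 0.00249), and the level was 2.50-fold lower. Cox8b, the muscle form of subunit VIII, had 14.90 and 14.82 in sham, 14.13 and 13.90 in vehicle overload, and 13.87, 13.53 and 13.93 in tamoxifen overload. Its difference was -1.06 ± 0.17 (adjusted p = 0.00392), 2.09-fold lower, and was not called without vehicle overload replicate 2. The lowest sham array of Cox8b exceeded its highest overload array, as for Cox7a1.

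The isoforms found in most tissues differed in sign. Cox6a1 had log2 levels of 12.71 and 12.77 in sham, 13.18 and 13.18 in vehicle overload, and 13.16, 13.40 and 13.27 in tamoxifen overload, a rise of 0.49 ± 0.15 (adjusted p = 0.0459), 1.40-fold. The rise of Cox6a1 was smaller and not called after centring arrays on their median (0.20, adjusted p = 0.503). Cox8a had 10.13 in vehicle sham and 10.79 in tamoxifen sham, 11.22 and 11.07 in vehicle overload, and 11.05, 11.21 and 11.40 in tamoxifen overload, a rise of 0.63 ± 0.13 (adjusted p = 0.0123), 1.55-fold. The sham arrays of Cox8a differed by 0.65, as much as the rise itself: without vehicle sham the difference was 0.31 (adjusted p = 0.295), and after centring it was 0.34 (adjusted p = 0.142). Cox7a2 had 15.00 and 14.88 in sham, 14.61 and 14.53 in vehicle overload, and 14.40, 14.11 and 14.31 in tamoxifen overload. The difference of Cox7a2 (-0.55 ± 0.17, adjusted p = 0.0538) just missed the threshold.

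Cox6a2, the muscle partner of Cox6a1, had log2 levels of 14.78 and 14.77 in sham, 14.50 and 14.36 in vehicle overload, and 14.35, 14.06 and 14.38 in tamoxifen overload (-0.50 ± 0.17, adjusted p = 0.0717). Its overload arrays lay below sham, yet it was not called by this probe set. Cox4i1, the main form of subunit IV, had 14.79 and 14.73 in sham, 14.41 and 14.35 in vehicle overload, and 14.28, 14.03 and 14.20 in tamoxifen overload (-0.51 ± 0.17, adjusted p = 0.0638). Cox4i2, the hypoxia-responsive form known best from lung, was dim and overlapped between groups, with 6.16 and 6.69 in sham, 6.85 and 5.91 in vehicle overload, and 6.91, 5.80 and 6.32 in tamoxifen overload (-0.22 ± 0.47, adjusted p = 0.793).

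Of the subunits without such a muscle partner, Cox6c had log2 levels of 14.95 and 14.83 in sham, 14.49 and 14.46 in vehicle overload, and 14.29, 13.99 and 14.32 in tamoxifen overload, a fall of 0.61 ± 0.17 (adjusted p = 0.0401). Cox5a fell by 0.52 ± 0.16 (adjusted p = 0.0473). Both calls lie near the threshold. Cox5b (-0.40), Cox6b1 (-0.33) and Cox7a2l (-0.30), a factor that joins complexes III and IV, were not called, and the Cox7a2l arrays overlapped between groups. Cox7c was measured by dim probe sets only. It had 7.44 and 7.48 in sham, 8.23 and 7.92 in vehicle overload, and 7.75, 7.64 and 7.80 in tamoxifen overload (0.36 ± 0.23, adjusted p = 0.318). Cox8c, known from testis, overlapped between groups, with 8.08 and 8.35 in sham, 7.75 and 8.42 in vehicle overload, and 8.23, 8.40 and 8.41 in tamoxifen overload (0.10 ± 0.24, adjusted p = 0.823). Cox6b2 and Cox7b2, at or under background by their mean, were not called and had differences of 1.33 ± 0.43 and -1.61 ± 0.93, each with sham arrays far apart.

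The balance of each isoform pair was compared as the change in the log2 ratio of its signals, which does not change when a whole array is scaled up or down. The ratio of Cox8b to Cox8a, set against its sham mean, was 0.36 in vehicle sham, -0.36 in tamoxifen sham, -1.48 and -1.57 in vehicle overload, and -1.59, -2.08 and -1.87 in tamoxifen overload. All 5 overload arrays lay below both sham arrays, with a mean change of -1.72 (SD over overload arrays 0.25, n = 5), 3.29-fold in the ratio. The ratio of Cox6a2 to Cox6a1 changed by -0.95 (SD 0.25, n = 5), with overload arrays from -1.37 to -0.71, and that of Cox7a1 to Cox7a2 by -0.68 (SD 0.19, n = 5), with overload arrays from -0.92 to -0.42. In these pairs the signal of the muscle form, relative to that of its partner, was lower on every overload array than on either sham array.

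In a two-sided exact permutation test over the arrays (21 regroupings, smallest possible p 0.0476), these 3 ratios each had p = 0.0476 and 0.0714 after adjustment over the 6 pairs compared. None passed the threshold after adjustment. Atp5g3 to Atp5g2 changed by 0.28 (SD 0.09, n = 5; exact permutation p = 0.0476, adjusted 0.0714). Atp5g1 to Atp5g2 (0.15, exact permutation p = 0.143, adjusted 0.172) and Cox4i2 to Cox4i1 (0.44, exact permutation p = 0.286, adjusted 0.286) overlapped between sham and overload. In male arrays alone the muscle to general ratios changed by -1.75 (Cox8), -1.03 (Cox6a) and -0.79 (Cox7a), where the smallest possible exact p was 0.1.

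**Figure D4:**
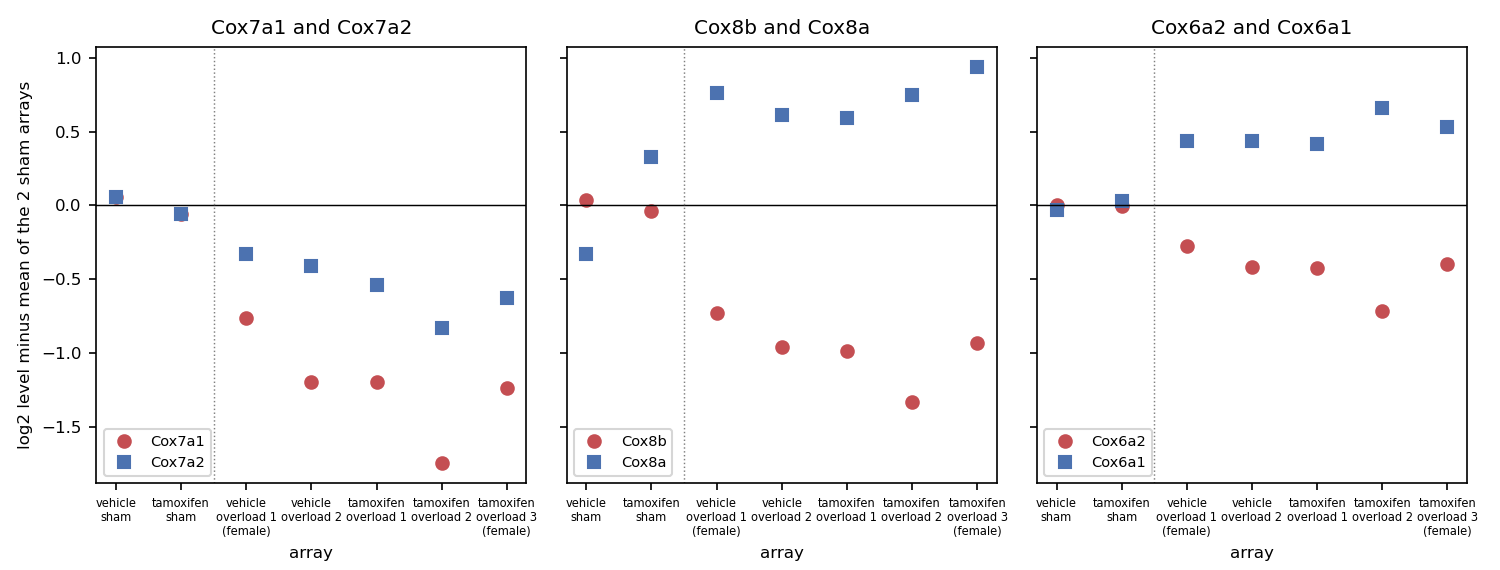
Log2 level minus the mean of the sham arrays for the muscle form (circles) and the form found in most tissues (squares) of the Cox7a, Cox8 and Cox6a pairs, on each of the 7 arrays; a dotted line parts sham from overload. On every overload array the muscle form lies below its partner, with Cox7a2 nearer 0 than Cox7a1, and Cox8a and Cox6a1 lying above 0.

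Promoters of 36 of the 48 genes were in the RefSeq table of build GRCm38.p6 (250 bases before to 50 after the gene start). They are shown for Cox7a1 and Cox8b, the muscle isoforms with the largest falls, and for Cox6a1 and Cox8a, the genes that rose. Coordinates are chr7:30183921-30184220 (plus strand) for Cox7a1, chr7:140900397-140900696 (minus strand) for Cox8b, chr5:115348909-115349208 (minus strand) for Cox6a1 and chr19:7217567-7217866 (minus strand) for Cox8a. Each is written 5′ to 3′ along the gene's strand, and capitals mark a match to a motif searched on both strands.
Cox7a1: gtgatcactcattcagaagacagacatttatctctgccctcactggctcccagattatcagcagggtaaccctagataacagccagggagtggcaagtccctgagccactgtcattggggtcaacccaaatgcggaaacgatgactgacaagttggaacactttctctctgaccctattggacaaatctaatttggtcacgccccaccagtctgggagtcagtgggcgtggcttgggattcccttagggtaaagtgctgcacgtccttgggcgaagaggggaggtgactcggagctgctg
Cox8b: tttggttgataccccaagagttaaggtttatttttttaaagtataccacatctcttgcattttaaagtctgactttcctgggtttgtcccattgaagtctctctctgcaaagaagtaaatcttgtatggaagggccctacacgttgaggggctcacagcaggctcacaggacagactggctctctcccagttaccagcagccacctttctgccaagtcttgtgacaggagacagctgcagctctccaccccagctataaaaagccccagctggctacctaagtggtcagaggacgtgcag
Cox6a1: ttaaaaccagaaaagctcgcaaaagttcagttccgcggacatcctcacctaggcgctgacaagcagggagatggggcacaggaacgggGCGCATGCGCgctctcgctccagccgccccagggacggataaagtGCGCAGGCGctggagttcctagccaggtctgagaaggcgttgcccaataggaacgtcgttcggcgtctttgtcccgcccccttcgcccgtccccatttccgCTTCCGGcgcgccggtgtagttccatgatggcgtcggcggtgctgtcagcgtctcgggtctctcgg
Cox8a: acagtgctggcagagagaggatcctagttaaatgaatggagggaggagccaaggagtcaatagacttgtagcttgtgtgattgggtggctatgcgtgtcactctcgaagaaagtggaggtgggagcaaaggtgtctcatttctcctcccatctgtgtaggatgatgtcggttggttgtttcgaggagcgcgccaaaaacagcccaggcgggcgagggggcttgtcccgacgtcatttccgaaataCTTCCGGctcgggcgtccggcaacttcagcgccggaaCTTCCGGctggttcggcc

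The motifs belong to factors known to act on respiratory chain genes: GCGCANGCG for NRF1, CCGGAAG for GABPA, AAGGTCA for the oestrogen-related receptors and AAGATGGC for YY1. The Cox6a1 window held NRF1 matches, a pair of which overlap on opposite strands, and 1 GABPA match. The Cox8a window held 2 GABPA matches. The Cox7a1 and Cox8b windows held no match to any of the 4. Among the other genes called lower, NRF1 matches were in Sdha, Sdhd, Uqcr11, Uqcrc1, Atp5g2, Atp5l and Cycs. GABPA matches were in Sdhb, Sdhd, Uqcr11, Atp5e, Atp5l and Atp5md. Uqcr10, Uqcrfs1, Cox5a, Atp5b and Atp5g1 were also lower and held no match to any of the 4. Some genes that were not called held matches too. Of the 36 genes, 13 (36.1%) had the NRF1 motif and 13 (36.1%) the GABPA motif in a promoter window, against 7.03% and 9.93% of all 27025 genes in the table. The oestrogen-related receptor motif was in 5 (13.9%, against 5.38%) and the YY1 motif in 3 (8.33%, against 3.19%). A match describes the letters and is no evidence of binding.

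Whole muscle holds several cell types, and fewer muscle fibres in the sample cannot be told apart from less RNA per fibre. The summed signal of 10 myofibre genes was 377012 to 395760 in sham and 262701 to 336464 in overload, their median difference was -0.33, and 0 of 10 were called by limma. All 5 overload arrays lay below both sham arrays for 8 of the 10, against 18.3% of all genes. Among all genes tested, limma called 8.16% lower and 14.7% higher. The median level of the 10 on each overload array lay 0.20 to 0.56 below sham, where the 48 genes lay 0.38 to 0.78 below. Macrophage genes rose in 8 of 8 (median 1.87, summed signal 4001 to 7328 in sham and 16807 to 26747 in overload) and fibroblast genes in 6 of 7 (median 2.08, 33602 to 42789 and 113170 to 140708). Of 6 white adipocyte genes measured, 3 were called lower (median -1.12, summed signal 13691 to 16054 in sham and 9833 to 16334 in overload). Lep, among the 3, lay under background by its mean. In 0 of the 6 did all overload arrays lie below both sham arrays. By their median level, the female overload arrays lay 0.01 and 0.29 from sham, and the male ones -1.22 (vehicle) and -0.94 (both tamoxifen). Cox8b is also used as a brown fat marker. Of 6 brown fat genes 1 was lower (Cox8b itself) and 1 higher (Dio2, 1.51, adjusted p = 0.00246), and the other 4 were not called. The defining gene Ucp1 had log2 levels of 4.70 and 4.68 in sham, 5.17 and 6.01 in vehicle overload, and 5.94, 4.27 and 8.01 in tamoxifen overload. Ucp1 and Cidea (8.33) were highest in tamoxifen overload replicate 3, where Cox8b was within the range of the other overload arrays. Dio2, Elovl3 and Prdm16 were highest on other arrays. Of 4 satellite cell genes 0 were called. Pax7 had log2 levels of 6.55 and 5.40 in the vehicle and tamoxifen sham arrays, 8.10 and 8.45 in vehicle overload, and 5.88, 3.46 and 6.92 in tamoxifen overload, so that each tamoxifen array lay below the vehicle arrays of the same surgery (in overload -2.67 ± 0.81, adjusted p = 0.399). Pax7 itself lay under background in tamoxifen sham and tamoxifen overload replicate 2. Myf5 was ordered like Pax7 in both surgeries. Calcr, under background by its mean, was ordered this way in overload but not in sham (4.04 in tamoxifen, 3.43 in vehicle). Myod1 was higher in tamoxifen sham (10.44) than in vehicle sham (9.9). In overload its arrays overlapped (9.04 and 10.23 in vehicle, 8.93, 9.18 and 9.6 in tamoxifen). The part of these cell types in the fall of the respiratory genes was not tested.

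Within each treatment the comparison rests on 1 sham array, whose spread was borrowed from the overload groups. In vehicle muscle, with satellite cells, 3 genes were lower after overload (Cox7a1, adjusted p = 0.0326, Cox8b, adjusted p = 0.0409, and Sdha, adjusted p = 0.036) and 1 was higher (Cox8a, adjusted p = 0.0268), against 2.44% and 6.35% of all genes (8.79% either way, close to the 8.33% of the 48 genes). In tamoxifen muscle 12 were lower and 1 was higher, against 4.9% and 9.98% of all genes (14.9% either way). The 12 were Sdha, Sdhc, Sdhd, Uqcrc1, Uqcrc2, Uqcr10, Uqcr11, Cox7a1, Cox8b, Atp5e, Atp5g2 and Atp5md, with Cox7a1 lowest (-1.44 ± 0.25, adjusted p = 0.00828) and Sdha (-0.99 ± 0.18, adjusted p = 0.0116) and Cox8b (-1.12 ± 0.22, adjusted p = 0.0136) next by adjusted p. The one higher gene, Cox6b2, lay near or below background, and its call rests on a tamoxifen sham level of 3.57 against 5.97 in vehicle sham. Differences lay below 0 for 41 of 48 genes in vehicle muscle (median -0.46) and 43 of 48 in tamoxifen muscle (median -0.60). Leaving out single arrays moved these counts: 0 of the 48 were called in vehicle muscle without vehicle overload replicate 1 (5.62% of all genes), vehicle overload replicate 2 (2.04%) or tamoxifen overload replicate 3 (5.62%), and 2 in tamoxifen muscle without any 1 of the same arrays (12.4%, 12.1% and 12.4%).

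The difference between the treatments in their response to overload was tested itself as the interaction. It called 0 of the 48 genes and 0 of all genes in limma. An ordinary linear model called 0 genes in every comparison, overload against sham included, so its 0 here adds nothing. At an unadjusted p under 0.05 there was 1 of the 48, against 5.61% of all genes, and the lowest adjusted p was 0.806. Without tamoxifen overload replicate 1, the interaction called 12 of all genes (0.066%) and 0 of the 48. The larger number of calls in tamoxifen muscle is therefore not shown to be a larger response. The sex term called 0 of the 48, and 0 also had an unadjusted p under 0.05, against 0.0495% called (0.033% higher and 0.0165% lower in females) and 5.01% unadjusted of all genes. The median difference between female and male was 0.05.

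Tamoxifen and vehicle were also compared in overloaded muscle alone (3 against 2 arrays), to see whether these transcripts differed under load. Every mouse carried both alleles, so an effect of tamoxifen itself cannot be told apart from the loss of satellite cells. Limma called 0 of the 48 genes and 0 of all genes (0%). The ordinary linear model, which called 0 genes in every comparison, could not add to this. At an unadjusted p under 0.05 there was 1 of the 48 (Uqcr11, -0.45 ± 0.17, adjusted p = 0.429), against 10.6% of all genes. Without tamoxifen overload replicate 1, limma called 227 of all genes (1.25%) and 0 of the 48. In that fit 6 of the 48 had an unadjusted p under 0.05, against 14.7% of all genes. With all arrays the differences were small and mostly of one sign: 44 of 48 lay below 0, against 47.2% of all genes, with a median of -0.23. For 35 of the 48, all 3 tamoxifen overload arrays lay below both vehicle overload arrays, against 12.6% of all genes. Without tamoxifen overload replicate 2, the array with the lowest values, this held for 35 (17.0% of all genes), and without replicate 1 or 3 for 39 (20.6%) and 37 (17.1%).

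Values of other genes moved with this pattern. All 10 myofibre genes were lower in tamoxifen than in vehicle overload by value (median difference -0.20, 0 called). For 7 of them all 3 tamoxifen arrays lay below both vehicle arrays, against 12.6% of all genes. The 8 macrophage genes all had higher values (median 0.46, 0 called), as did the 7 fibroblast genes (median 0.21, 0 called) and the 5 endothelial genes (median 0.35, 0 called), and array medians were higher in the tamoxifen overload arrays. The median difference of the 48 genes was -0.38 after centring each array, -0.13 after quantile normalization and -0.17 without tamoxifen overload replicate 2. Sham arrays were ordered the same way for 37 of the 48 genes (tamoxifen below vehicle, against 47.1% of all genes), with a median of -0.09 and no replicate to set it against. The part of cell content and of scaling in the difference was not tested.

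**Figure D5:**
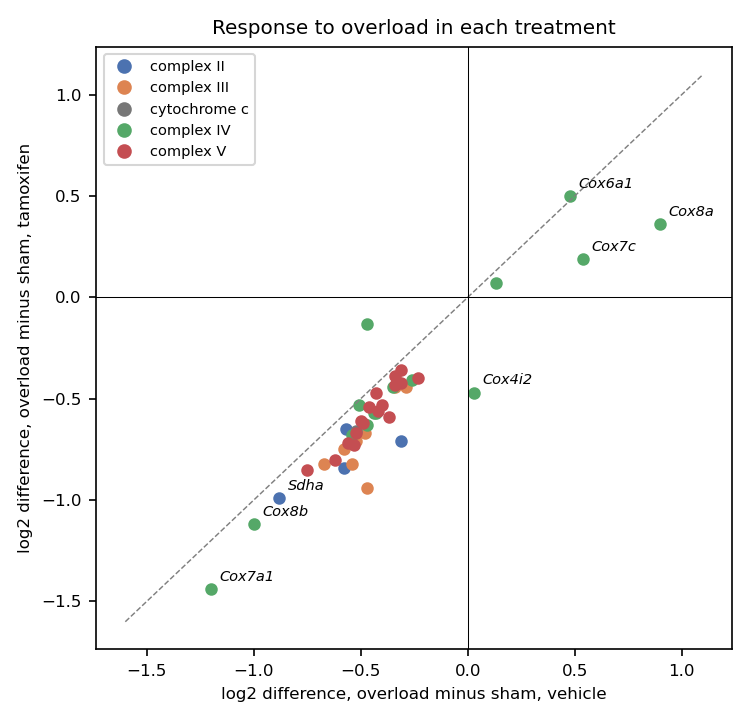
Difference in log2 level between overload and sham within tamoxifen (vertical axis) against the same within vehicle (horizontal axis) for the 46 genes above background, coloured by complex, with a dashed line of equality. The axes share no arrays, though they come from one fit; Cox7a1, Cox8b and Sdha lie lowest on both, and most points lie just below the line.

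Other genes of the pathway were counted from lists set by function, beside 8.16% lower and 14.7% higher among all genes tested. Of 36 complex I subunits, 23 were lower and 0 higher after overload (median -0.58), with Ndufs7 (-0.91 ± 0.16, adjusted p = 0.00586), a core iron-sulfur subunit, the lowest of those called. Of 31 measured assembly factors of complexes II to V, 8 were lower and 1 higher (median -0.22). The largest falls were Uqcc1 (-1.12), Cox10 (-1.01), Ttc19 (-1.01) and Atpaf1 (-0.86). Uqcc1 is needed to make cytochrome b of complex III, and Cox10 takes part in making haem A for complex IV. Ttc19 acts on complex III, and Atpaf1 assembles the head of complex V. The median of the assembly factors was nearer 0 than that of the subunits, a difference that was not tested.

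Regulators known to act on these genes were called lower in 5 of 19 (median -0.35), against 8.16% of all genes. Ppargc1a, the coactivator of mitochondrial biogenesis, differed by -1.42 (adjusted p = 0.00121), Ppara by -1.56, the oestrogen-related receptor Esrra by -1.18 (adjusted p = 0.00295) and Tfb2m, of mitochondrial transcription, by -0.68 (adjusted p = 0.0112). The nuclear factors Nrf1 (-0.61, adjusted p = 0.161) and Gabpa (-0.23, adjusted p = 0.275) were not called. Tfam, which packages mitochondrial DNA, differed by -0.35 (adjusted p = 0.119).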

How the data were processed

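Total RNA of 7 plantaris samples was hybridised to Affymetrix mouse430_2.0 arrays, per the labels. The deposited values are linear intensities, and the submitters' processing notes name Partek without version or role. How probe sets were summarised: not given in the sources used here. On each array the mean of the intensities, without the lowest and highest 2%, is 500, so the authors' deposited values are scaled array by array. Scaling of this kind cannot show a change in total RNA.

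Intensities were taken as log2(value + 1). Of 45101 probe sets, 34945 have 1 gene symbol, 932 several and 9160 none (64 are controls). For each of 18193 genes the probe set with the highest mean was used. The background level is the 95th percentile of 75 olfactory, vomeronasal and taste receptor genes. limma 3.58.1 in R 4.3.3 fitted a term per group and a term for sex with an intensity trend (2 residual and 5.95 prior degrees of freedom). Sham groups have 1 array each and were assumed to vary like overload arrays. Tests were two-sided, with Benjamini-Hochberg adjustment over all genes and calls at 0.05. SE is limma's moderated standard error. The procedure was tested on simulated data.

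The members and lists were chosen with earlier results of these data known, so directions are no independent support. Values on every array are given for up to 4 members above background per complex with the largest difference, for the isoform pairs and for members above background with a positive difference. Other members and the remaining arrays' ranges are summarised. Alternatives were male arrays alone, a fit without the sex term, quantile normalization, median centring, a pseudocount of 16, a filter on dim genes, the mean over all probe sets per gene, no intensity trend, an ordinary linear model, a fold minimum of 1.5 and leaving out each array. Figures used Python 3.11.15 and matplotlib 3.10.9.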

Additional observations from a re-analysis of the deposited data

How the results depend on the processing

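With 2 sham arrays and 2 residual degrees of freedom, the calls depend on the processing more than the differences do. For overload against sham the 25 genes called (22.9% of all genes) became 34 without the sex term (27.1%), 6 in male arrays alone (20.1%), 11 after quantile normalization (18.4%), 34 with the filter on dim genes (33.7%), 12 with all probe sets per gene averaged (17.6%), and 0 without the intensity trend and 0 in an ordinary linear model (0 of all genes in both; 26 of the 48 at an unadjusted p under 0.05 in each). Leaving out each array gave 1 to 33. Within vehicle, 4 (8.79% of all genes) became 0 in male arrays (5.63%), 1 after quantile normalization (5.3%), 1 after centring (8.14%), 0 with the mean of probe sets (5.78%), 0 without the trend and 0 in an ordinary linear model (leaving out arrays gave 0 to 6). Within tamoxifen, 13 (14.9% of all genes) became 20 without the sex term (17.2%), 2 in male arrays (12.5%), 6 after quantile normalization (11.9%), 24 with the filter (24.2%), 5 with the mean of probe sets (10.7%), 0 without the trend and 0 in an ordinary linear model (leaving out arrays gave 2 to 25). A fit without either female array is nearly that of male arrays alone. Medians after quantile normalization and after centring were -0.26 and -0.80 for all 48 genes, -0.46 and -0.95 for complex II, -0.37 and -0.91 for complex III, -0.23 and -0.69 for complex IV, and -0.23 and -0.78 for complex V. Leaving out arrays gave -0.53 at the lowest for complex IV. For tamoxifen against vehicle in overload the median was -0.38 after centring. Signs turned for Cox4i2 (0.05 without tamoxifen sham, 0.20 without vehicle overload replicate 2, with -0.57 the lowest over single arrays left out), for Cox8c (-0.13 after quantile normalization, -0.19 after centring, -0.04 without vehicle sham, -0.23 without vehicle overload replicate 2, with 0.24 the highest), and, with the mean of probe sets, for the ratios Atp5g1 to Atp5g2 (-0.34) and Atp5g3 to Atp5g2 (-0.22). The causes were not tested. Calls of Cox7a1 held in 15 of 17 alternatives. No paired analysis was possible because the labels number only the male arrays of tamoxifen overload, and the other replicate numbers are names that pair no samples.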

Other observations

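Carriers and enzymes that surround the respiratory complexes were measured on the same arrays. Of 18 measured genes of energy transfer and mitochondrial content, 9 were lower and 1 was higher after overload in limma (median -0.56). Among all genes tested, 8.16% were lower and 14.7% higher. The fusion proteins Mfn1 (-1.13) and Mfn2 (-0.98), the outer membrane channel Vdac3 (-0.87), the mitochondrial creatine kinase Ckmt2 (-0.79, adjusted p = 0.0154) and citrate synthase Cs (-0.62, adjusted p = 0.0438) were among those lower. The adenine nucleotide carriers also come as tissue forms: Slc25a5, found in most tissues, rose by 0.83 (adjusted p = 0.00869), and Slc25a4, the heart and muscle form, was not called (-0.54, adjusted p = 0.0622). Of 6 genes that feed electrons to ubiquinone or hold the inner membrane and the complexes together (Cox7a2l among them), 5 were lower (median -0.76). These were led by Etfdh (-0.93), Chchd3 (-0.85), Etfb (-0.81) and Etfa (-0.72).

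The 48 genes have 96 probe sets, and 37 of those not chosen lay above background. Of these 37, 32 had the same sign as the chosen probe set and 3 the opposite one for overload against sham. Sdha had differences of -0.94, -1.24 and -0.70, and Uqcr10 of -0.66, -0.93 and -1.06. For Cox6a2 the chosen probe set gave -0.50 and the other -1.01. The muscle form of subunit VIa was thus lower on both and called by the less bright probe set only. Cox6a1 rose by 0.58 on its other probe set, which was not called in the limma fit over 34945 probe sets (adjusted p = 0.0538). In that fit its chosen probe set was not called either (adjusted p = 0.0585). The chosen probe sets of Cox5a, Cox6c, Atp5b, Atp5g1 and Cycs also lost their calls there. Cox8a rose by 0.61 on its other probe set above background. Of 30 brighter unchosen probe sets (mean log2 level of at least 10) 27 had a difference below 0, and of 7 dimmer ones 3 did.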
